A study of Mus musculus with 36 samples.

Results

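The shortest running distance of the study was compared with no running in mice on a high-fat diet. The comparison used 12 of the 36 gastrocnemius libraries, 6 from each group and 1 library per mouse. The gastrocnemius is the main calf muscle. All 12 animals were wild-type C57BL/6 males, 3 to 4 weeks old at the start, that ate the high-fat diet for 12 weeks. HFD-C mice were sedentary and had no wheel. HFD-25% mice ran 2.1 km/day on a wheel with a programmable brake, about 25% of the distance covered by HFD-U mice, whose wheels were not restricted. HFD-50%, HFD-75% and HFD-U mice ran 4.2, 6.3 and 8.3 km/day on the same diet, and NFD-C mice were sedentary on the control diet. These groups enter here only for their levels and for direct comparisons with HFD-25%. Since sedentary mice had no wheel, running and access to a wheel cannot be told apart. The hour at which the muscle was taken is not given in the sources used here.

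Running recruits the calf muscles, and repeated contraction is known to drive capillary growth, remodelling of the matrix around the fibres and a shift of fuel use toward fat. Endothelial cells line the capillaries, fibroblasts lay down the collagens, and nuclear receptors such as the PPARs and LXRs set the transcription of lipid genes. Bulk muscle RNA mixes all of these cells, so fewer cells of a type and less RNA per cell cannot be told apart in any value below. Muscle genes dominated the libraries. Acta1, the skeletal actin, and Ckm, the muscle creatine kinase, had means of 16340 and 7825 FPKM over the 12 mice, where FPKM is the library-scaled count per kilobase of gene. None of the 13 muscle identity genes tested passed the limit given below with all 12 mice.

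Between 15545094 and 27981702 reads per HFD-C library and between 15253995 and 21240392 per HFD-25% library were counted on genes. The HFD-C libraries did not form 1 set. Features linked to ribosomal RNA (rRNA) held 3.54, 3.14, 2.3, 2.12, 0.551 and 0.626% of the counts in HFD-C replicates 1 to 6, and 0.498 to 0.699% in HFD-25%. Replicates 1 to 4 thus had a high share, and replicates 5 and 6, called the low-share controls below, had the share of the runners. Lars2, annotated as a mitochondrial leucyl-tRNA synthetase, is 1 of the 5 features counted in this share, so its move with the share is partly built in. It stood at 1484, 1321, 859.5, 716, 83.1 and 71.6 CPM (counts relative to the scaled library size) in HFD-C and 63.9 to 179 CPM in HFD-25%. Its log2 difference of -2.88 (SE 0.62) turned to 0.42 when the low-share controls were the only controls. LOC118568312 and AY036118, which carry most of the rRNA-linked counts, turned from -2.59 and -2.59 to 0.47 and 0.50. The main results are therefore given with all 6 HFD-C mice and with the low-share controls alone.

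**Figure D1:**
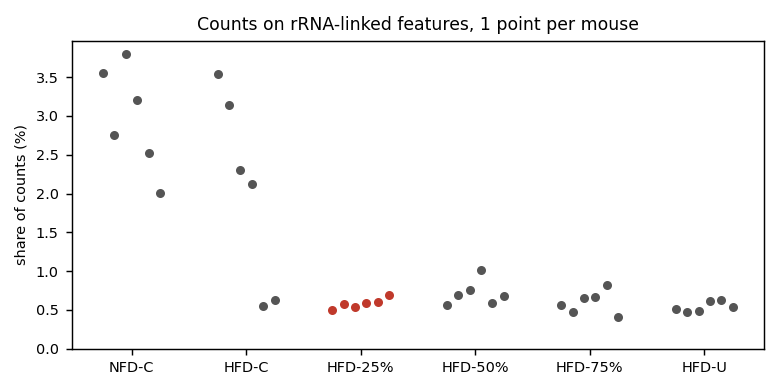
Share of all counts on rRNA-linked features, in percent, for the 36 mice by group, 1 point per mouse, with HFD-25% in red. HFD-C replicates 1 to 4 lie with the NFD-C mice, and HFD-C replicates 5 and 6 lie with the runners, whose HFD-25% members range from 0.498 to 0.699%.

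Running 2.1 km/day went with small differences spread over many genes. Of 12202 genes tested with edgeR's quasi-likelihood method, 852 (6.98%) had an unadjusted p of at most 0.05, the limit of the study's gene counts, with 415 (3.40%) higher and 437 (3.58%) lower in HFD-25%. These shares are the background for every count of list members below, and "higher" and "lower" stand for genes within this limit. In counts simulated for these 12 libraries, 4.83% of the genes without a true difference passed the same limit in edgeR. The simulation drew each gene independently and without the split of the HFD-C libraries by rRNA-linked share. It thus tests the method and is not a null for this comparison. After Benjamini-Hochberg adjustment over all genes in edgeR, 1 gene (0.00820%), Map3k15, kept an adjusted p of at most 0.05, while DESeq2 on the same genes gave 44. The edgeR adjusted p of the other genes called higher or lower below lay between 0.089 and 0.715 in this comparison, so each rests on its unadjusted value alone. With the low-share controls alone, 1403 of 12051 genes (11.6%) passed, 697 higher (5.78%) and 706 lower (5.86%), and 1 (0.00830%) by adjusted p. Of the 852 genes, 825 were tested there, 807 kept their sign and 324 passed again in the same direction. A fit with all 12 mice and the rRNA-linked share as covariate called 6.21% higher and 7.04% lower. In 19 genes (0.156%) every HFD-25% mouse was above every HFD-C mouse, and in 27 (0.221%) every one was below.

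Map3k15 (gene 270672, GRCm39 chrX:158771200-158906342), a stress-responsive kinase upstream of the MAP kinases, had the smallest p. In order of replicate it stood at 1.27, 1.08, 1.08, 1.63, 0.663 and 1.37 CPM in HFD-C and 4.31, 4.63, 4.88, 4.49, 5.9 and 4.75 CPM in HFD-25%. The groups were far apart, with the lowest runner above 2 times the highest control. The mean rose from 1.18 ± 0.326 to 4.83 ± 0.564 CPM (SD over 6 mice each), a 4.06-fold difference (log2 2.02, SE 0.23, edgeR adjusted p = 0.00271). Leaving out each mouse in turn gave 1.91 to 2.13. Against the low-share controls alone the log2 difference was 2.26, with an edgeR adjusted p of 0.134, so the adjusted call was lost while the size was not smaller. With the rRNA-linked share as covariate in the fit over all 12 mice the log2 difference was 2.23, and the adjusted call was lost there too (edgeR adjusted p = 0.0596). The other running groups had 1.83 to 7.65 CPM in HFD-50%, 1.54 to 3.12 CPM in HFD-75% and 1.54 to 3.8 CPM in HFD-U, and NFD-C mice 1.05 to 2.85 CPM. HFD-25% was above HFD-U (log2 0.78, SE 0.22) and was not separated from HFD-50% (log2 0.21, SE 0.30).

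**Figure D2:**
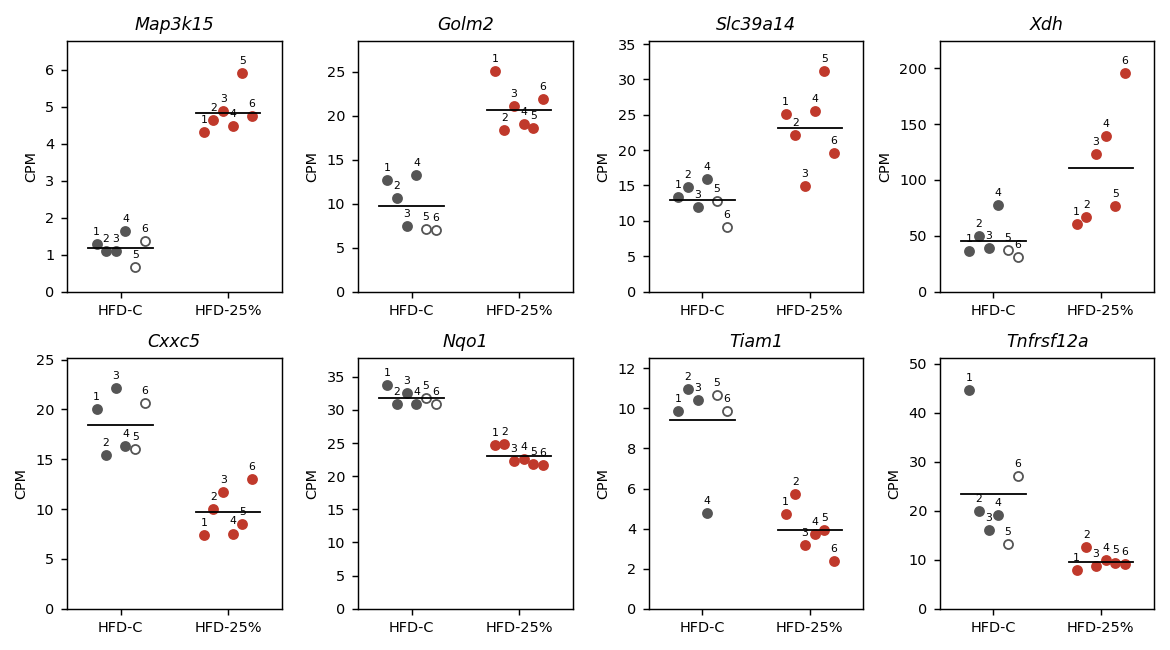
Expression of 8 genes with small p, in CPM on linear axes from 0, for the 6 HFD-C and 6 HFD-25% mice, numbered by replicate, with a line at each group's mean. Open points are HFD-C replicates 5 and 6. Map3k15, Golm2, Cxxc5, Nqo1 and Tnfrsf12a show no overlap between the groups, and HFD-C replicate 4 lies among the runners for Tiam1.

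Golm2, a membrane protein of the Golgi, came next. It was at 7.002 to 13.2 CPM in HFD-C and 18.4 to 25.1 CPM in HFD-25%, again without overlap (log2 1.09, SE 0.18, 2.13-fold). Against the low-share controls alone its log2 difference was 1.56, and it was the 1 gene there with an edgeR adjusted p of at most 0.05 (adjusted p = 0.0462). Slc39a14, the zinc and iron transporter ZIP14, stood at 9.13 to 15.9 CPM in HFD-C and 14.97 to 31.1 CPM in HFD-25% (log2 0.83, SE 0.17), and its ranges overlapped through HFD-25% replicate 3 and HFD-C replicate 4. Xdh, xanthine dehydrogenase, the last enzyme of purine breakdown, was at 35.95, 49.6, 38.8, 77.2, 37.4 and 30.96 CPM in HFD-C and 60.9, 66.6, 123, 139.5, 76.9 and 196 CPM in HFD-25%. Its highest values were those of HFD-25% replicates 3, 4 and 6, and the mean difference was 2.46-fold (log2 1.30, SE 0.29). Slc43a3, a purine nucleobase transporter, was also higher (log2 0.81, SE 0.19), again most in replicates 3, 4 and 6 at 67.6, 78.4 and 96.4 CPM. Pak1, a p21-activated kinase of the actin cytoskeleton, differed by 0.75 on the log2 scale, Nwd1 by 0.94, Kank3, a cytoskeletal adaptor, by 0.998 and the uncharacterised LOC118567527 by 1.41. These 9 genes, Map3k15 included, stayed within the limit with any 1 mouse left out. Against the low-share controls alone all but Kank3 (0.88) did.

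Cxxc5, Nqo1, Tiam1 and 4 other genes with small p were lower in the runners. Cxxc5, a CpG-binding zinc finger protein, was at 15.4 to 22.1 CPM in HFD-C and 7.41 to 13.03 CPM in HFD-25% (log2 -0.93, SE 0.16). Nqo1, a quinone reductase under control of NRF2, showed a small and tight difference. It was at 33.8, 30.9, 32.5, 30.9, 31.8 and 30.9 CPM in HFD-C and 24.8, 24.8, 22.3, 22.6, 21.9 and 21.7 CPM in HFD-25%, with no overlap (log2 -0.47, SE 0.09). Tiam1, an exchange factor that activates Rac, was at 9.87, 10.9, 10.4, 4.76, 10.7 and 9.89 CPM in HFD-C and 4.71, 5.73, 3.18, 3.75, 3.94 and 2.37 CPM in HFD-25% (log2 -1.26, SE 0.23), where HFD-C replicate 4 was the 1 control within the range of the runners. Cd276, an immune checkpoint ligand, and Tpx2, a spindle assembly factor, differed by -1.14 and -1.18, both without overlap. Tnfrsf12a, the receptor for the cytokine TWEAK, was at 13.3 to 44.7 CPM in HFD-C and 7.81 to 12.6 CPM in HFD-25% (log2 -1.29, SE 0.25), and Map3k7cl at 15.6 to 28.02 CPM in HFD-C and 9.31 to 17.3 CPM in HFD-25% (log2 -0.77, SE 0.16). These 7 genes kept their calls with any 1 mouse left out and against the low-share controls alone, where they ranged from -1.41 for Tpx2 to -0.43 for Nqo1. LOC118568007 and Flrt1, an adhesion protein, had p values as small, but both were highest in HFD-C replicates 1 to 4, the mice with the high rRNA-linked share. LOC118568007 was at 31.04, 26.8, 17.1 and 16.3 CPM in HFD-C replicates 1 to 4, 1.45 and 0.549 CPM in replicates 5 and 6 and 0.422 to 2.44 CPM in HFD-25%. Flrt1 was at 6.09, 6.04, 6.97, 3.69, 2.83 and 0.892 CPM in HFD-C and 0.575 to 1.64 CPM in HFD-25%, so that its HFD-C replicate 5 was above every runner. Both fell under the minimum count with the low-share controls alone and were not tested there.

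Genes of capillary endothelium were higher in HFD-25%. Of 33 tested genes of a list of endothelial markers, vascular growth factors and Notch genes of the vessel wall, 10 (30.3%) were higher and 0 lower, and the median log2 difference was 0.37, against -0.01 over all genes. Dll4, the Notch ligand of sprouting tip cells, was at 3.68, 6.41, 7.69, 7.64, 5.18 and 5.22 CPM in HFD-C and 5.57, 9.21, 16.7, 14.5, 7.64 and 20.9 CPM in HFD-25% (log2 1.06, SE 0.29). Flt1, the VEGF receptor 1, was at 35.01 to 80.6 CPM in HFD-C and 55.8 to 189 CPM in HFD-25% (log2 0.92, SE 0.27). Sox18, a transcription factor of vessel development, was at 4.33 to 12.7 CPM in HFD-C and 7.58 to 20.8 CPM in HFD-25% (log2 0.94, SE 0.28). In each of these genes HFD-25% replicates 3, 4 and 6 lay above every control. Egfl7, an endothelial matrix factor, was higher by 0.71. These 4 calls held with any 1 mouse left out, and against the low-share controls alone Dll4, Flt1 and Sox18 stayed within the limit at 1.27, 1.24 and 0.99 while Egfl7, at 0.80, did not.

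The endothelial difference was largest in 3 of the 6 runners. Of the 10 genes called, 10, 10 and 9 were above every HFD-C mouse in HFD-25% replicates 3, 4 and 6, against 0, 3 and 0 in replicates 1, 2 and 5. Cdh5, VE-cadherin of endothelial junctions, was at 105, 96.4 and 141 CPM in replicates 3, 4 and 6, at 37.8, 45.9 and 48.04 CPM in replicates 1, 2 and 5 and at 33.7 to 61 CPM in HFD-C. Its log2 difference of 0.69 was lost without HFD-C replicate 6 or HFD-25% replicate 3, 4 or 6, at 0.45 to 0.63. Tie1, an endothelial receptor kinase, was at 52.5, 47.8 and 78.7 CPM in the same 3 mice and 19.4, 23.1 and 23.4 CPM in the others (0.77, lost without HFD-25% replicate 6, at 0.48). Cldn5, a tight junction protein, was higher by 0.62 (lost without HFD-25% replicate 3, at 0.49). Pecam1, an adhesion molecule of endothelium, and Kdr, the VEGF receptor 2, were not within the limit, at 0.35 and 0.32. The count of 10 went to 5 without HFD-25% replicate 3 or 6 and to 6 without HFD-C replicate 6 or HFD-25% replicate 4. It rose to 14 without HFD-25% replicate 1 and to 12 without HFD-C replicate 4 or HFD-25% replicate 2. In the test with the low-share controls alone 7 of 33 were higher and 0 lower (median 0.63). The summed level was 1077, 987, 921, 1272, 950.1 and 892 CPM in HFD-C and 978, 888, 1529, 1467, 978 and 2063 CPM in HFD-25%. The share of counts from the mitochondrial genome moved with it, at 21.3, 17.9 and 23.3% in HFD-25% replicates 3, 4 and 6 and 14.7, 12.7 and 13.2% in replicates 1, 2 and 5, although HFD-C replicates 4 and 6 had 19.3 and 21%. Summed muscle genes were lower in the same 3 mice. The muscle identity list was at 129200, 113500 and 92500 CPM in HFD-25% replicates 3, 4 and 6, at 150300, 162000 and 162900 CPM in replicates 1, 2 and 5 and at 119400, 146100, 140300, 109100, 175000 and 147700 CPM in HFD-C. The fast fibre list was at 145300, 129300 and 93890 CPM in the first 3 and 166500, 184800 and 183900 CPM in the others. HFD-C replicate 4, the control with the highest endothelial sum, had the lowest muscle identity and fast fibre sums among the controls. The part of the mitochondrial share and of the muscle sums in the endothelial result was not tested.

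**Figure D3:**
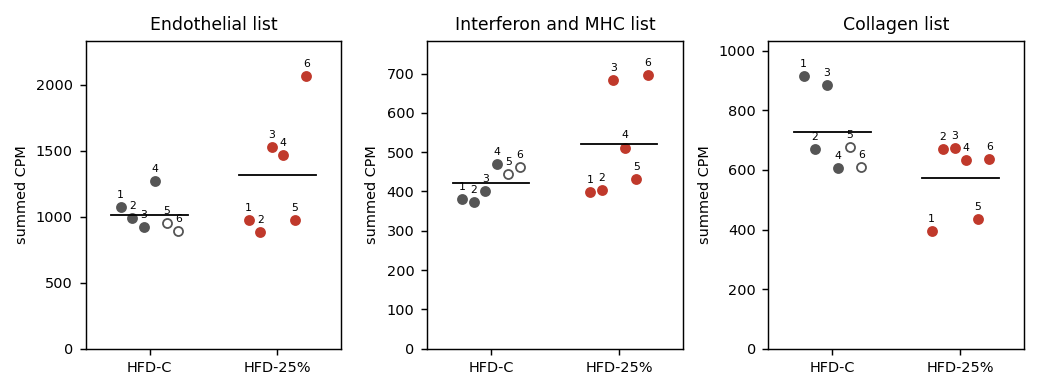
Summed expression in CPM of the endothelial, the interferon and MHC, and the collagen list, in linear panels from 0, for the 6 HFD-C and 6 HFD-25% mice numbered by replicate, with group means as lines. Open points are HFD-C replicates 5 and 6. The endothelial sums of HFD-25% replicates 3, 4 and 6 (1529, 1467 and 2063 CPM) lie above all HFD-C sums, and the collagen sums of replicates 1 and 5 (395 and 434 CPM) lie below them.

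Genes induced by interferon and genes of antigen presentation on MHC class I were higher in the same animals. Interferons are cytokines that switch on antiviral genes through STAT and IRF factors, which bind the interferon-stimulated response element. Of 34 genes tested, 12 (35.3%) were higher and 0 lower, with a median log2 difference of 0.39. Oasl2, an antiviral protein of the oligoadenylate synthetase family, was at 1.24, 1.24, 1.08, 1.19, 2.17 and 1.37 CPM in HFD-C and 3.1, 1.42, 4.47, 1.9, 2.37 and 7.49 CPM in HFD-25% (log2 1.32, SE 0.38). Irf1, an interferon regulatory factor, was at 3.56 to 8.26 CPM in HFD-C and 5.92 to 16.8 CPM in HFD-25% (log2 0.86, SE 0.26), and Iigp1, an interferon-inducible GTPase, at 3.91 to 6.39 CPM in HFD-C and 3.99 to 20.8 CPM in HFD-25% (log2 1.04, SE 0.33). These 3 kept their calls with any 1 mouse left out. Of the 12 called genes, 11, 8 and 12 were above every control in HFD-25% replicates 3, 4 and 6, against 3, 1 and 5 in replicates 1, 2 and 5. The count of 12 went to 4 without HFD-25% replicate 6 and to 6 without HFD-25% replicate 3. It rose to 15 without HFD-25% replicate 2, where 1 was lower, and to 14 without HFD-25% replicate 1. Against the low-share controls alone 3 of 34 were higher, near the background, with a median of 0.38. Oasl2 (0.97) and Iigp1 (1.23) were then outside the limit and Irf1 (1.08) within it. The 13 macrophage markers tested had 0 calls higher and 0 lower and summed to 70.2 to 126 CPM in HFD-C and 58.3 to 125 CPM in HFD-25%, and no marker of that list was at 0 in all 12 libraries. With only the low-share controls 2 of 13 were higher and 0 lower (median 0.18). The endothelial list moved in the same 3 mice, and its part in the interferon result was not tested. MHC class I genes and the family of Iigp1 have close copies between which reads can be split, so their single values are uncertain.

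The core of the interferon-stimulated response element was looked for in the promoters of the called interferon genes, because it is the sequence through which IRF and STAT complexes act. The windows reach from 250 bases before to 50 after the gene start in RefSeq on GRCm38.p6. The motif was GAAA, any 2 bases and GAAA again, on either strand. Of the 12 called genes 9 had a window, and of the 34 tested 25, too few for a count over the list, so the check over the list is void. Of all 32851 windows 3.44% hold the motif. No comparison with that share is made for these genes. Of the 9 called genes with a window 5 hold the motif, and their windows are shown 5′ to 3′ on the strand of the gene, with the motif in capitals. They are Ifit1 at chr19:34640639-34640938 (+), Rsad2 at chr12:26456403-26456702 (-), Gbp2 at chr3:142620413-142620712 (+), H2-T23 at chr17:36032652-36032951 (-) and B2m at chr2:122147437-122147736 (+).
Ifit1: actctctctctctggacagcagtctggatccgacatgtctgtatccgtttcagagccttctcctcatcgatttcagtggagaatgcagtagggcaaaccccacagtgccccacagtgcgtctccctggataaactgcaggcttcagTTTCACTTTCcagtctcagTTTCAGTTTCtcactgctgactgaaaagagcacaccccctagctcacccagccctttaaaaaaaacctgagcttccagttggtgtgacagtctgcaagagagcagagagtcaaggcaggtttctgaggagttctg
Rsad2: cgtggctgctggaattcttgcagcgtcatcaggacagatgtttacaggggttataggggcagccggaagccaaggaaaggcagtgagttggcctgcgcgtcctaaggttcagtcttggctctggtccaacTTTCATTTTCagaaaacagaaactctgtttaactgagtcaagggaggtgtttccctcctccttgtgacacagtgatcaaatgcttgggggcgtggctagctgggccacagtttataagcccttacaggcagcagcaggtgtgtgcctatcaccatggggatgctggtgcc
Gbp2: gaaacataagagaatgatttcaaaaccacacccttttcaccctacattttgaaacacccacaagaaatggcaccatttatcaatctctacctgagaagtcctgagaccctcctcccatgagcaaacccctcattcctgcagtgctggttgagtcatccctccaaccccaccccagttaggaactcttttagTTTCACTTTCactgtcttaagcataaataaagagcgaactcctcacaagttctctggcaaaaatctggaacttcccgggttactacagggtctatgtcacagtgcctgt
H2-T23: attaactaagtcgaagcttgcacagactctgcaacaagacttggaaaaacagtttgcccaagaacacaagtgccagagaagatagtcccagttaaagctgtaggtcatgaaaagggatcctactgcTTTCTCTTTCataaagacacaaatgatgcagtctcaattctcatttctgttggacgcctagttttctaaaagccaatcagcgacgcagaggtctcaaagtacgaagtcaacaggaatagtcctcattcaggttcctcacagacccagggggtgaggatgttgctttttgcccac
B2m: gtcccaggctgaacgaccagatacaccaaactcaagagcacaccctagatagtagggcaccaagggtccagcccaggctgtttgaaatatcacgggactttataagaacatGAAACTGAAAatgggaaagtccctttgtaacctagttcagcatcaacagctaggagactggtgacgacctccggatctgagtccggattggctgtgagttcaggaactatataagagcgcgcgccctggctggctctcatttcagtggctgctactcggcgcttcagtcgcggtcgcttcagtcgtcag
The window of Ifit1 holds 2 matches and the others 1 each, while those of Oasl2, Irf1, Irf7 and H2-Q4 hold none in these letters.

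Ifit1, Rsad2, Gbp2 and H2-T23 had low levels, and HFD-25% replicate 6 was the highest mouse in each. Ifit1, an antiviral RNA-binding protein, was at 1.06, 2.17, 1.19, 1.44, 2.35 and 1.17 CPM in HFD-C and 1.72, 0.515, 4.7, 2.06, 2.43 and 7.31 CPM in HFD-25% (log2 1.001, lost without HFD-C replicate 1, 3, 4 or 6 or HFD-25% replicate 3, 5 or 6, at 0.57 to 1.06). Rsad2, the antiviral enzyme viperin, was at 1.72 to 7.64 CPM in HFD-C and 3.24 to 12.4 CPM in HFD-25% (log2 0.88, lost without HFD-C replicate 1, 2, 3, 5 or 6 or HFD-25% replicate 3, 4 or 6, at 0.58 to 0.88). Gbp2, a guanylate-binding GTPase, was at 2.68 to 6.89 CPM in HFD-C and 4.18 to 14 CPM in HFD-25% (log2 0.74, lost without HFD-C replicate 2 or 6 or HFD-25% replicate 3 or 6, at 0.50 to 0.66). H2-T23, a non-classical MHC class I molecule, was at 6.55 to 8.2 CPM in HFD-C and 5.98 to 19.2 CPM in HFD-25% (log2 0.70, lost without HFD-25% replicate 6, at 0.51). B2m, the light chain of MHC class I, was more abundant, at 65.01, 65.9, 72.05, 102, 84.1 and 90.1 CPM in HFD-C and 80.8, 82.5, 151, 112, 79.01 and 135 CPM in HFD-25% (log2 0.42, lost without HFD-C replicate 1, 2 or 3 or HFD-25% replicate 3, 4 or 6, at 0.29 to 0.41).

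Collagen genes were lower in HFD-25% than in all 6 HFD-C mice, but not against the low-share controls. Of 31 tested, 9 (29%) were lower and 2 higher (median -0.21). Col1a1, a chain of the fibrillar collagen I, was at 76.2, 47.02, 45.7, 27.4, 34.7 and 37.5 CPM in HFD-C and 16.3, 32.6, 32.2, 29.2, 16.03 and 26.9 CPM in HFD-25% (log2 -0.81, SE 0.24). Col1a2, its partner chain, was at 62.4 to 114 CPM in HFD-C and 36.6 to 74.4 CPM in HFD-25% (log2 -0.58, SE 0.18). The lowest values of both were in HFD-25% replicates 1 and 5, in which 9 and 8 of the 9 lower genes were below every control, against 1, 1, 2 and 3 in replicates 2, 3, 4 and 6. Col15a1, a collagen of basement membranes, was at 13.2 to 34.2 CPM in HFD-C and 8.62 to 15.7 CPM in HFD-25% (log2 -0.70, SE 0.21), Col5a1, of fibrils, differed by -0.71 and Col6a3, of the pericellular matrix, by -0.61. These 5 calls held with any 1 mouse left out. None of them was within the limit against the low-share controls alone, with Col1a1 at -0.49, Col1a2 at -0.40, Col15a1 at -0.16, Col5a1 at -0.10 and Col6a3 at -0.27. Over the list 1 of 30 was then lower and 1 higher, and the median turned to 0.09. The count of 9 went to 5 without HFD-C replicate 3 or HFD-25% replicate 1 or 5. Of 14 fibroblast markers tested 3 were lower and 0 higher, those lower being collagen chains, and the list summed to 787 to 1594 CPM in HFD-C and 779 to 1594 CPM in HFD-25%. In the test against the low-share controls alone 0 were lower and 2 higher.

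Among other genes of matrix remodelling, the transforming growth factors beta moved apart. These cytokines drive matrix synthesis by fibroblasts. Of 55 genes tested, 8 (14.5%) were lower and 2 higher (median -0.18). Tgfb2 was at 17.5, 14.7, 23.3, 11.8, 19.04 and 16.1 CPM in HFD-C and 10.7, 8.82, 12.6, 9.19, 9.44 and 10.96 CPM in HFD-25% (log2 -0.73, SE 0.16), and only HFD-25% replicate 3 reached into the control range. Tgfb3 was lower too, at 16.7 to 25.1 CPM in HFD-C and 13.3 to 19.1 CPM in HFD-25% (log2 -0.45, SE 0.13), while Tgfb1 was higher, at 2.48 to 5.31 CPM in HFD-C and 3.94 to 7.92 CPM in HFD-25% (log2 0.63, SE 0.24). Loxl1, an enzyme that crosslinks elastin, was at 11.1 to 21.4 CPM in HFD-C and 5.29 to 10.3 CPM in HFD-25% without overlap (log2 -0.84, SE 0.21). These 4 kept their calls with any 1 mouse left out and against the low-share controls alone, at -0.76, -0.44, 0.73 and -0.97. Over the list, 6 genes were then lower and 5 higher, with a median of 0.08. The count of 8 went to 3 without HFD-C replicate 1 or HFD-25% replicate 1 and to 5 without HFD-C replicate 2 or HFD-25% replicate 5. It rose to 11 without HFD-C replicate 6.

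**Figure D4:**
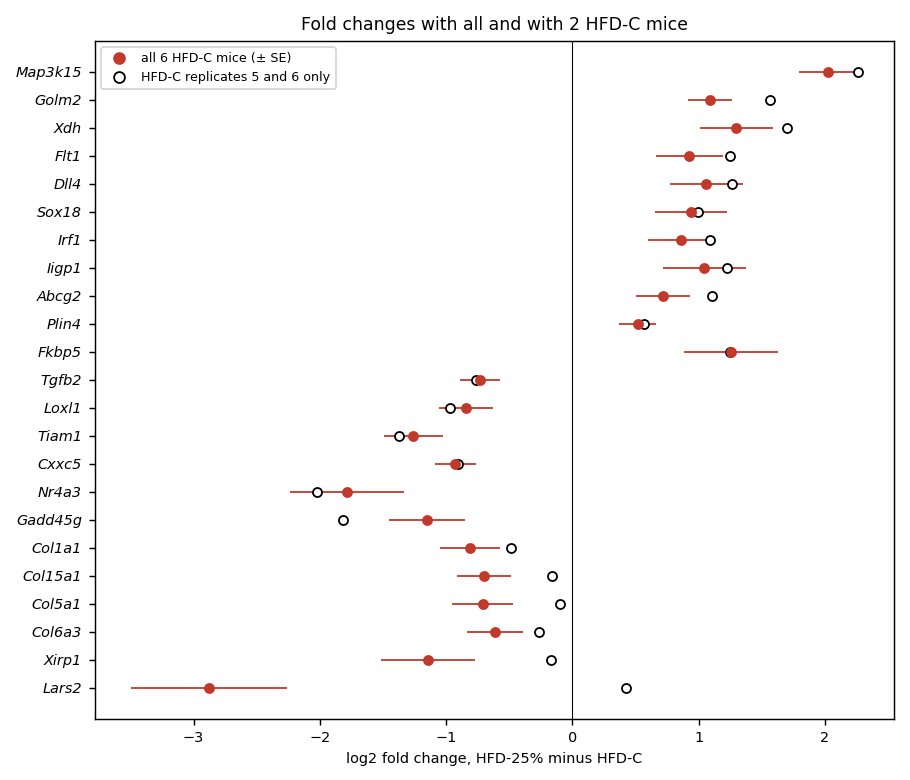
Log2 fold change of HFD-25% minus HFD-C for 23 named genes, as red points with SE bars from all 6 HFD-C mice and as open points from HFD-C replicates 5 and 6 alone. Map3k15 (2.02 and 2.26), Tgfb2 and Loxl1 stay close to their value, the collagens and Xirp1 move toward 0, and Lars2 changes sign (-2.88 and 0.42).

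ATP-binding cassette transporters, which pump lipids, drugs and metabolites across membranes, were mostly higher where they differed. Of 32 tested, 6 (18.8%) were higher and 1 lower, and against the low-share controls alone 7 and 1. The higher count of 6 ranged from 4, without HFD-25% replicate 6, to 7 with 1 mouse left out. The lower count of 1 went to 0 without HFD-25% replicate 1 or 4. Abcg2, an efflux pump for urate and drugs, was at 21.2, 18.7, 17.6, 25.1, 19.3 and 9.06 CPM in HFD-C and 22.9, 20.5, 37.1, 36.3, 27.7 and 37.8 CPM in HFD-25% (log2 0.72, SE 0.21), highest again in replicates 3, 4 and 6. Abcc4, an exporter of cyclic nucleotides and urate, was at 10.9 to 18.4 CPM in HFD-C and 18.1 to 21.2 CPM in HFD-25% (log2 0.37, SE 0.13). Abcb1b, a P-glycoprotein, was at 7.07 to 13.97 CPM in HFD-C and 10.8 to 17.3 CPM in HFD-25% (log2 0.51, SE 0.18), and it shares much of its sequence with Abcb1a, so that its counts are uncertain. Abca1 and Abcg1, which export cholesterol and are targets of the oxysterol receptors LXR, were higher by 0.46 and 0.95 on the log2 scale. The call of Abca1 was lost without HFD-25% replicate 1, at 0.35, and that of Abcg1 was lost without HFD-25% replicate 6, at 0.74. Abcb1a was also called higher, and its call was lost without HFD-25% replicate 3, 4 or 6, at 0.48 to 0.52.

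Few lipid genes were within the limit, but most oxidation genes and PPAR targets had log2 differences above 0, where the median over all genes was -0.01. Genes of 1 list can move together in a mouse, so members above 0 are not independent results. Of 29 genes of lipogenesis and LXR response, 5 (17.2%) were higher and 0 lower (median 0.10). The count of 5 went to 3 without HFD-25% replicate 4. Thrsp, a regulator of fat synthesis, was among them (0.60, lost without HFD-25% replicate 4, at 0.50). With the low-share controls alone 3 of 29 were higher and 0 lower. Of 38 genes of fatty acid oxidation and lipolysis, 4 (10.5%) were higher and 0 lower, and 35 had a log2 difference above 0 (median 0.18). The count of 4 went to 1 without HFD-C replicate 3 or HFD-25% replicate 4 and to 2 without HFD-25% replicate 6. The median ranged from 0.08 without HFD-C replicate 3 to 0.33 without HFD-C replicate 1. The list summed to 3661 to 9149 CPM in HFD-C and 4372 to 10980 CPM in HFD-25%, with wide overlap. Lipe, hormone-sensitive lipase, was at 15.7 to 26.2 CPM in HFD-C and 22.9 to 45.8 CPM in HFD-25% (log2 0.60, SE 0.19), and kept its call at 0.61 against the low-share controls alone. There 2 of 38 were higher and 0 lower, a share below the 5.78% of all genes, with a median of 0.37. Of 33 PPAR targets, 3 (9.09%) were higher and 0 lower, and 29 had a log2 difference above 0 (median 0.23). The count of 3 went to 5 without HFD-C replicate 4 or HFD-25% replicate 3. The lower count of 0 went to 3 without HFD-C replicate 3 and to 2 without HFD-C replicate 5, with medians of 0.13 and 0.14. With only the low-share controls 2 of 33 were higher and 2 lower (median 0.52). Plin4, a coat protein of lipid droplets, was at 380.3, 513, 499, 576, 559 and 383 CPM in HFD-C and 749, 779.8, 607, 736, 749.8 and 544 CPM in HFD-25% (log2 0.52, SE 0.15), and at 0.57 against the low-share controls alone. Here HFD-25% replicates 3 and 6 were the lowest runners. Ucp3, an uncoupling protein of muscle mitochondria, was higher by 0.54 (lost without HFD-C replicate 1 or 6 or HFD-25% replicate 2 or 5, at 0.42 to 0.50).

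Cholesterol genes differed in both directions, with 4 of 29 higher and 3 lower. The higher count of 4 went to 2 without HFD-C replicate 2, 3 or 4 or HFD-25% replicate 2, 4, 5 or 6. When tested with the low-share controls alone 3 were higher and 2 lower. The synthesis enzyme Hsd17b7 was lower (log2 -0.55, SE 0.19), and it was outside the limit against the low-share controls alone (-0.58).

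Of the 12 genes that the study singled out over its running distances, 10 were higher, Lars2 was lower and Klf10, a transcription factor induced by TGF-beta, was not within the limit (0.18). By RT-qPCR on the same samples, the study reported significant differences of these genes from HFD-C only in HFD-50%, HFD-75% and HFD-U. The study chose the 12 on these samples, so the count of 10 is not independent evidence. Besides Xdh, they include Aldh1l1, a folate enzyme, at 2.63 to 6.73 CPM in HFD-C and 5.73 to 12.7 CPM in HFD-25% (log2 1.14, SE 0.26), Aldh9a1, an aldehyde dehydrogenase of carnitine and polyamine metabolism (log2 1.18, SE 0.33), Phyhd1, a dioxygenase (log2 0.71, SE 0.17), and Sesn1, the stress protein sestrin 1 (log2 0.56, SE 0.15). Car4, a carbonic anhydrase on the surface of capillaries, was at 3.47, 3.2, 2.94, 11.96, 3.98 and 6.18 CPM in HFD-C and 9.37, 6.37, 13.1, 22.1, 8.51 and 29.04 CPM in HFD-25% (log2 1.49, SE 0.41). Replicate 4 was the highest control, and replicates 4 and 6 were the highest runners. Car14, another carbonic anhydrase and not one of the 12, was higher by 0.61, but at 0.54 and outside the limit against the low-share controls alone. The 6 other carbonic anhydrases tested were not within it.

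Fkbp5, Foxo1, Pik3r1 and Fibin are the other genes of the 12 that were higher. Fkbp5, a chaperone induced by glucocorticoids, was at 23.96, 82.2, 55.6, 121, 111 and 32.3 CPM in HFD-C and 196, 247, 136, 169, 202 and 65.9 CPM in HFD-25% (log2 1.26, SE 0.38). Foxo1, a transcription factor of fasting and atrophy that insulin signalling inhibits, was at 21.3, 49.2, 28.9, 43.02, 45.8 and 12.6 CPM in HFD-C and 101, 57.2, 54.8, 69.4, 84.8 and 28.9 CPM in HFD-25% (log2 0.98, SE 0.32). In both genes HFD-25% replicate 6, the highest runner for the endothelial sum, was the lowest runner. Pik3r1, a regulatory subunit of PI3-kinase, differed by 0.52, and Fibin by 0.76 (lost without HFD-C replicate 1 or 4 or HFD-25% replicate 2 or 5, at 0.65 to 0.70). Against the low-share controls alone 9 of the 12 genes were higher and 0 lower, Fkbp5 at 1.25, Foxo1 at 1.18 and Fibin, outside the limit, at 0.76. Of a wider glucocorticoid list, to which Fkbp5, Foxo1 and Gadd45g belong, 2 of 23 were higher and 2 lower (median -0.04). In the test against the low-share controls alone 3 were higher and 5 lower (median -0.28), and with the rRNA-linked share as covariate 1 and 5 (median -0.30). The higher count of 2 went to 4 without HFD-25% replicate 6. Of 30 genes of insulin signalling 1, Pik3r1, was higher and 2 lower, against 4 and 0 with the low-share controls alone. Gadd45g, a growth arrest gene, was lower, at 119, 73.7, 155, 132, 246 and 296 CPM in HFD-C and 82.7, 71.8, 47.5, 125, 56.9 and 74.6 CPM in HFD-25% (log2 -1.15, SE 0.30). Bhlhe40, a repressor in the circadian clock, was lower too, at 57.5 to 113 CPM in HFD-C and 34.6 to 68.8 CPM in HFD-25% (log2 -0.66, SE 0.18). Both stayed within the limit against the low-share controls alone, at -1.81 and -0.54.

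Immediate early genes, which muscle switches on within minutes of a stimulus, were mixed, with 5 of 29 lower (17.2%) and 3 higher. Nr4a3, an orphan nuclear receptor known to respond to exercise, was at 1.25 to 11.1 CPM in HFD-C and 0.739 to 2.19 CPM in HFD-25% (log2 -1.78, SE 0.45). Jund, a subunit of AP-1, differed by -0.52 and Ccn1, a matricellular protein, by -0.60, while Zfp36l1, an RNA-decay factor, was higher by 0.40. These 4 kept their calls with any 1 mouse left out and against the low-share controls alone, where Nr4a3 was at -2.02. Over the list 8 were then lower and 2 higher. The lower count of 5 went to 3 without HFD-C replicate 6 or HFD-25% replicate 1, 2 or 3 and to 8 without HFD-C replicate 4. Of 37 chaperone genes, 4 (10.8%) were lower and 1 higher, and 6 of 36 and 1 with the low-share controls alone. Hspa1b, an inducible HSP70, was lower by 0.91 on the log2 scale, though it is nearly identical to Hspa1a, between which reads can be split, and Hsp90b1, a chaperone of the endoplasmic reticulum, differed by -0.27. Hsph1, a partner of HSP70, was higher, at 59.8 to 86.5 CPM in HFD-C and 83.6 to 129 CPM in HFD-25% (log2 0.47, SE 0.13).

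The nuclear-encoded machinery of respiration held no call with all HFD-C mice. Of 97 genes of the nuclear-encoded respiratory complexes and the citrate cycle, 0 were higher and 0 lower in edgeR, where 6.98% of all genes passed, and their log2 differences lay between -0.30 and 0.31 (median 0.02). Among the most abundant per length were Ndufb9 and Ndufa3 of complex I (-0.01 and -0.04), Cox6a2 and Cox8b of cytochrome oxidase (-0.07 and -0.08) and Mdh2 of the citrate cycle (-0.01). A p outside the limit does not show that levels are equal. When only the low-share controls were used, 2 of 36 genes of complex I and 1 of 38 of the other complexes were lower and 0 higher. Without HFD-C replicate 6, 3 genes of complex I were higher. Of 13 proteins encoded by mitochondrial DNA 1 was higher and 0 lower. It was ATP8, a subunit of ATP synthase, at 4.07, 2.07, 2.79, 3.13, 1.15 and 2.54 CPM in HFD-C and 13.8, 2.25, 4.47, 2.9, 4.86 and 3.59 CPM in HFD-25% (log2 1.01, lost without HFD-C replicate 2 or 5 or HFD-25% replicate 1, at 0.46 to 0.95, and outside the limit against the low-share controls alone), whose gene overlaps that of the next subunit, so that its counts are uncertain. Of 31 genes of slow and fast fibres 0 were higher and 0 lower, with Myl3 and Mybpc1 of slow fibres at 0.15 and -0.51 and Tnnt3 and Tnni2 of fast fibres at -0.10 and -0.12. With the low-share controls alone 3 of 15 fast fibre genes were lower and 0 higher (median -0.39), and with the covariate 6 and 0, while the slow fibre list had 0 calls in either fit. Of the muscle identity genes 1 was lower with the low-share controls and 3 with the covariate. The summed slow fibre genes varied widely within each group, at 4920, 2707, 940.1, 5095, 837 and 5308 CPM in HFD-C and 3291, 1148, 1811, 2324, 2123 and 5707 CPM in HFD-25%. Of 75 ribosomal proteins 0 were higher and 0 lower, but 1 and 12 against the low-share controls alone, and 6 were lower without HFD-C replicate 1. In the same way 1 of 31 proteasome genes and 2 of 32 antioxidant and metallothionein genes were lower with all controls, and 10 and 10 against the low-share controls alone.

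Among 29 sarcomere genes, 1 was higher and 3 lower, and 0 and 1 against the low-share controls alone. Actc1, the cardiac actin that skeletal muscle also makes in development, was at 37.5, 47.3, 57.7, 17.2, 46.8 and 101 CPM in HFD-C and 337, 42.8, 85.6, 70.9, 223 and 149 CPM in HFD-25% (log2 1.56, SE 0.46), highest in replicates 1 and 5, the runners with the lowest collagen sums. Xirp1, an actin-binding protein of muscle repair, was at 503, 176, 86.8, 154, 82.4 and 108 CPM in HFD-C and 74.9 to 111 CPM in HFD-25% (log2 -1.14, SE 0.37). Without HFD-C replicate 1 the difference of Xirp1 was -0.53. Both genes were, with the low-share controls alone, outside the limit, at 1.05 and -0.17.

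Markers of other cells were counted with both sets of controls. Of 11 fat cell markers tested 1 was higher and 1 lower, and the list summed to 1604 to 2428 CPM in HFD-C and 1080 to 2249 CPM in HFD-25%. That list includes the carbonic anhydrase Car3. The carbonic anhydrase list summed to nearly the same levels, 1505 to 2462 CPM in HFD-C and 1137 to 2258 CPM in HFD-25%. The fat cell sum is therefore not a measure of fat cells. The lower gene was Lep, the fat cell hormone leptin, at 1.03, 2.12, 0.929, 0.438, 0.723 and 16.6 CPM in HFD-C and 1.21, 0.708, 0.0921, 0.686, 1.79 and 0.122 CPM in HFD-25% (log2 -2.22). Without HFD-C replicate 6 it fell under the minimum count and was not tested. The lower count of 1 went to 2 without HFD-C replicate 5 or HFD-25% replicate 1, to 3 without HFD-C replicate 1 or 4 or HFD-25% replicate 5 and to 4 without HFD-C replicate 3. When only the low-share controls were used 5 of 12 fat cell markers were lower and 1 higher (median -0.62), and with the covariate 4 and 1. Of 8 markers of smooth muscle and pericytes 1 was higher and 0 lower, and 3 and 0 against the low-share controls alone. The count of 1 went to 0 without HFD-C replicate 1, 5 or 6 or HFD-25% replicate 4 or 6 and to 3 without HFD-C replicate 4. The 6 blood and 7 Schwann cell markers tested had 0 calls in either direction, and against the low-share controls alone 1 blood marker was lower.

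**Figure D5:**
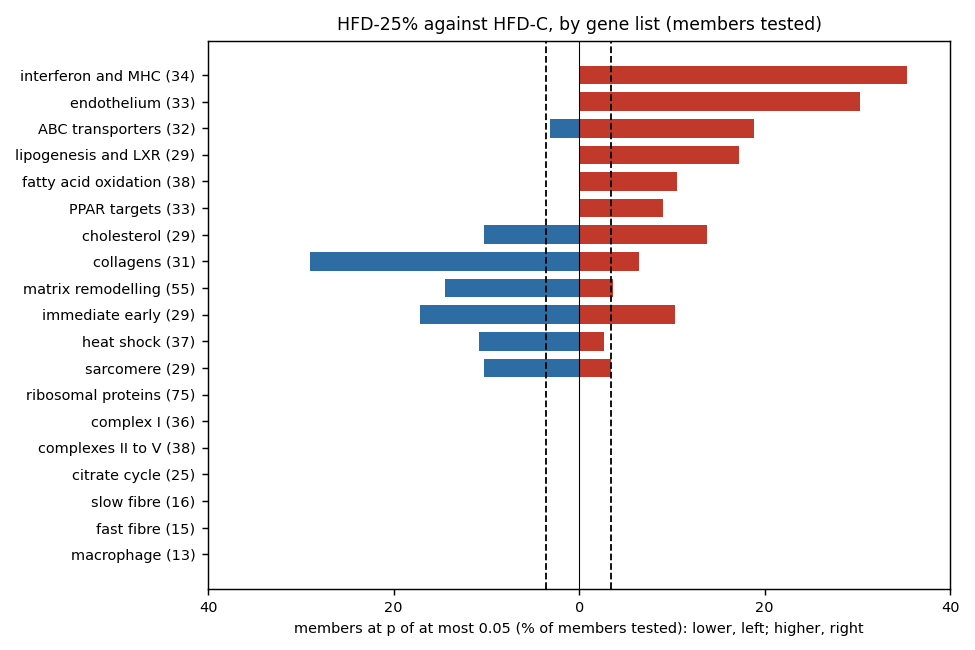
Share of the tested members of 19 gene lists that were higher (red, right) or lower (blue, left) in HFD-25% than in the 6 HFD-C mice at an unadjusted p of at most 0.05, in percent, with the number tested in parentheses. Dashed lines are the shares over all genes (3.40% higher, 3.58% lower). The interferon and MHC, endothelial and collagen lists reach 35.3, 30.3 and 29%, and the nuclear-encoded respiration, fibre, macrophage and ribosomal lists are at 0.

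HFD-25% was then set against the next distance. Of 12020 genes tested against HFD-50%, 323 (2.69%) were within the unadjusted limit, 114 higher (0.948%) and 209 lower (1.74%) in HFD-25%, and 0 had an adjusted p of at most 0.05 in edgeR or in DESeq2. The limit passes about 1 gene in 20 where none differs, which is more than the 2.69% seen here. Without HFD-50% replicate 4 the counts were 112 higher and 91 lower, so that the balance turned. They were 220 higher and 306 lower without HFD-50% replicate 1 and 195 higher and 278 lower without HFD-25% replicate 6. Pafah2, which inactivates platelet-activating factor, was at 5.47 to 5.75 CPM in HFD-25% and 2.62 to 4.07 CPM in HFD-50% (log2 0.70, SE 0.15). Mfap3l and the uncharacterised Gm13490 were higher too (log2 0.70, SE 0.17, and log2 0.73, SE 0.19). Serpina3n, an acute-phase protease inhibitor, was lower, at 0.599 to 1.67 CPM against 1.53 to 8.85 CPM (log2 -1.54, SE 0.42). These 4 calls held with any 1 mouse left out. Of the study's 12 genes, 5 were lower in HFD-25% than in HFD-50% and 0 higher. The study chose the 12 on these samples and reported that HFD-50% changed most among them, so this count is not independent evidence either. Of the endothelial list 0 genes were higher and 1 lower, and of the interferon list 0 and 0.

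The last comparison was with unrestricted running at 8.3 km/day. Of 11949 genes tested, 609 (5.10%) were within the limit, 393 higher (3.29%) and 216 lower (1.81%) in HFD-25%, with 0 at an adjusted p of at most 0.05 in edgeR or in DESeq2. The total of 5.10% is near the 1 gene in 20 that the limit passes where none differs. The counts were 641 higher and 386 lower without HFD-U replicate 4, 744 higher and 481 lower without HFD-25% replicate 1, 257 higher and 200 lower without HFD-25% replicate 3 and 254 higher and 150 lower without HFD-25% replicate 6. Genes of the endothelial and interferon lists were higher in HFD-25%, in 7 of 32 and 12 of 34 genes, with 0 lower (medians 0.45 and 0.42). These counts use the same 6 HFD-25% mice as the comparison with HFD-C. Sox18 was at 7.58 to 20.8 CPM in HFD-25% and 4.63 to 10.2 CPM in HFD-U (log2 1.04, SE 0.23), Sox13, a related factor, at 16.4 to 20.4 CPM and 11.6 to 16.7 CPM (log2 0.49, SE 0.10), and Tnks1bp1, a tankyrase-binding protein, at 22.3 to 26.7 CPM and 15.6 to 20.7 CPM (log2 0.43, SE 0.09). Bhlhe40 was lower, at 34.6 to 68.8 CPM against 67.9 to 166 CPM (log2 -0.93, SE 0.20), as were Nhs (log2 -1.32, SE 0.31) and Pik3cd, a PI3-kinase of leukocytes (log2 -0.58, SE 0.14). These 6 calls held with any 1 mouse left out.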

How the data were processed

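Poly(A)-selected RNA from 36 gastrocnemius muscles, 6 mice per group, was sequenced in pairs. Per the labels and the submitters' processing notes, the authors aligned reads with HISAT2 2.0.5 and made the deposited table of raw counts per gene with featureCounts 1.5.0-p3. The strand setting is not given in the sources used here. The notes name mm10, but the positions in the table are those of GRCm39, which are printed here. The authors' DESeq2 1.20.0, edgeR 3.22.5 and StringTie 1.3.3b output was not used here.

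Samples were grouped by their labels, which name separate mice. HFD-25% was compared with HFD-C, and then with HFD-50% and HFD-U, each in its own fit over both groups. Counts were tested with the quasi-likelihood F-test of edgeR 4.0.16 in R 4.3.3, with TMM scaling, a mean count of at least 25 and Benjamini-Hochberg adjustment. A call is an unadjusted p of at most 0.05, as in the study. Of 46893 features 562 have no gene name and hold 0.151 to 0.576% of a library's counts. They were kept in the library sizes, and in the tests where they reached the minimum count. CPM values use TMM factors over all 36 libraries. The fit was tested on simulated data. Within each group no pair of libraries agreed within sampling noise, with a chi-square per degree of freedom of 10.4 or more.

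Alternatives were DESeq2 1.42.0, no minimum count, RLE scaling, removal of rRNA-linked features, their share as covariate, the low-share libraries only, the mouse number as a replicate block, 1 fit over the 5 high-fat groups, both mice numbered 1 left out, and each mouse left out.

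The genes, 50 gene lists and tests were chosen with earlier results of these data known. Named are the study's 12 genes, the 10 smallest p in each direction, the 3 smallest p within each list (the 2 highest FPKM where a list has no call), the 3 smallest p in each direction of the 2 direct comparisons, and members of lists with 12 or fewer tested genes. Egfl7, Cldn5, Tie1, Cdh5, Pecam1, Kdr, H2-T23, Gbp2, Rsad2, Ifit1, B2m, Col5a1, Col6a3, Tgfb1 and Zfp36l1 were added after their values were seen. Lists not described in the text held at most 4 calls with all controls. Among them, 3 of 17 inflammation and chemokine genes (17.6%) were higher and 1 (5.88%) lower, against 3.40 and 3.58% of all genes. With the low-share controls alone 2 of the 17 were higher and 1 lower. Some genes that the rule names are not reported here.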

Additional observations from a re-analysis of the deposited data

Results flagged for a closer look

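Of 200 groups of 6 mice examined for the genes named, 8 held 1 mouse far from the other 5, where chance gives about 1 in 20, or 10. The gap was judged with Dixon's test on log2(CPM + 0.1). HFD-C replicate 4 was low for Tiam1 at 4.76 CPM (the others 9.87 to 10.9 CPM) and for Pik3cd at 8.96 CPM (16.8 to 21.9 CPM). HFD-C replicate 6 was low for Abcg2 at 9.06 CPM (17.7 to 25.1 CPM) and for Tnks1bp1 at 13.9 CPM (25.3 to 28.6 CPM). HFD-C replicate 5 was low for Nwd1 at 1.45 CPM (2.19 to 2.79 CPM) and high for Oasl2 at 2.17 CPM (1.08 to 1.37 CPM). Among the runners, HFD-25% replicate 2 was low for Bhlhe40 at 34.6 CPM (56.3 to 68.8 CPM), and HFD-25% replicate 1 was high for Xirp1 at 111 CPM (74.9 to 82.2 CPM).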

How the results depend on the processing

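The count of 852 calls against HFD-C rose to 2415 without a minimum count (1347 in DESeq2), to 1617 with the rRNA-linked share as covariate and to 1403 with HFD-C replicates 5 and 6 alone. It was 919 in DESeq2, 841 with RLE scaling, 847 without rRNA-linked features, 959 in the fit over 5 groups and 920 without both mice numbered 1, and 629 to 1084 with 1 mouse left out. The covariate fit called 357 and DESeq2 826 of the 852 in the same direction. The 1 gene at an adjusted p of at most 0.05 became 44 in DESeq2 (26 of them 2-fold), 16 without a minimum count (14), 45 in DESeq2 without it (30), 10 in the fit over 5 groups (10) and 0 with the covariate (0). With 1 mouse left out it ranged from 1 to 6, and from 1 to 6 for 2-fold changes, with 6 and 6 without HFD-C replicate 6 and 4 and 3 without HFD-C replicate 4. Lars2, LOC118568312 and AY036118 changed sign, to 0.36, 0.41 and 0.44 with the covariate and to 0.42, 0.47 and 0.50 with HFD-C replicates 5 and 6 alone. These features are counted in the share, so a fit with the share as covariate cannot decide their difference. The cause of the sign change was not tested. Of 81 named genes with a call, 50 kept it with the covariate, and 73 to 79 with 1 mouse left out.

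Against HFD-50% the count of 323 was 1397 without a minimum count and 203 to 526 with 1 mouse left out, the extremes being without HFD-50% replicates 4 and 1. Against HFD-U the count of 609 was 1796 without a minimum count and 404 to 1225 with 1 mouse left out, the extremes being without HFD-25% replicates 6 and 1, and it was 1027 without HFD-U replicate 4.

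The groups share mouse numbers 1 to 6. Deviations of same-numbered mice correlated at 0.00233 to 0.349 for HFD-25% and HFD-C, above 0.1 in 4 of 6 pairs. In this comparison 4 of 6 mice correlated best with their own number, and 4 of 6 did so with HFD-50% and with HFD-U. The main fit did not treat the numbers as pairs, so an effect shared by mice of the same number is not removed from it. What the numbers share was not tested. With the number as a replicate block, 1010 genes passed against HFD-C (693 of the 852 among them), 0 by adjusted p (Map3k15 at an edgeR adjusted p of 0.0614) and 0 of those 2-fold. Against HFD-U 1036 passed, where 5 of 6 pairs were above 0.1, and against HFD-50% 436, where 4 were.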
